A study of Mus musculus with 20 samples.

Results

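The genes described here are 33 mouse genes of amino acid transport and of the response to the transcription factor ATF4, among the 54986 genes of a deposited table of RNA-sequencing values. They were taken by gene name: 6 transcription factors and regulators, 11 enzymes of amino acid synthesis and one-carbon metabolism, 10 amino acid transporters and 6 stress effectors and secreted or membrane proteins. The names were chosen from knowledge of the pathway and with measured values of these libraries in view, among them the level of Slc38a1 in E1KD cells against NMuMG cells. Fold changes and counts of the members are therefore descriptions in every comparison, and no p-value given here is independent support for the list.

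The libraries came from 10 conditions of NMuMG, a normal murine mammary gland epithelial cell line grown as 2D cultures in DMEM with 10% fetal bovine serum, with 2 libraries per condition. The first kind of library held untreated NMuMG cells, NMuMG cells treated with TGFβ for several days, NMuMG cells carrying an shRNA against hnRNP E1 (the protein encoded by Pcbp1; called E1KD), and a pair of lines derived from E1KD. These were M1P, recovered from a primary mammary tumor, and L1P, recovered from lung metastases, after E1KD cells had been injected into the mammary fat pad of NOD/SCID mice. M1P and L1P carry a puromycin resistance gene and were cultured again before RNA was extracted, so their libraries describe cultured lines and not tumors. The second kind of library held NMuMG cells with an Empty vector, NMuMG cells overexpressing the long noncoding RNA Platr18 as clone 12 and as clone 16, each of which is a single clone, and E1KD cells that also carried a scrambled shRNA (E1KD SCR) or an shRNA against Platr18 (E1KD Platr18 KD). Nothing in the labels says that the libraries of a condition came from separate cultures, so the p-values measure the spread between these libraries, which may be technical. In bulk RNA, fewer cells of a type and less RNA per cell cannot be told apart.

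Values are counts per 1000000 reads (CPM), and members were compared only within a kind of library, because the kinds differed in content: the mitochondrial ribosomal RNA mt-Rnr2 stood at 333 to 492 CPM in the first kind and at 113900 to 165100 CPM in the second. Summed gene values ran from 547497 to 728651 CPM in the first kind and from 742097 to 797257 CPM in the second. A single read was worth 0.0167 to 0.0197 CPM in the first kind and 0.00679 to 0.0159 CPM in the second. E1KD replicate 1 stood apart: it had the highest sum of its kind, and 31 of the 32 tested members were higher in it than in E1KD replicate 2, with a median difference of 0.30 on the log2(CPM + 1) scale against 0.29 over all tested genes. In the other conditions the median difference of members between replicates lay between -0.10 and 0.05. Pcbp1 checked the labels: NMuMG had 287 and 312 CPM, E1KD had 16.6 and 14.2 CPM, both Empty vector libraries had 32.3 CPM, and E1KD SCR had 3.28 and 3.46 CPM. Platr18, listed as Lncenc1, stood at 3.69 and 3.06 CPM with the Empty vector, at 3092 and 3096 CPM in clone 12, at 813 and 820 CPM in clone 16, at 2.92 and 3.10 CPM in E1KD SCR and at 0.136 and 0.170 CPM in E1KD Platr18 KD. In M1P, Pcbp1 stood at 26.51 and 27.59 CPM and Platr18 at 25.66 and 26.23 CPM. In L1P, Pcbp1 stood at 28.63 and 30.52 CPM and Platr18 at 76.86 and 73.25 CPM. The part of these levels in the values of the members was not tested. Of 7 mammary epithelial markers, 5 reached 1 CPM in every condition, with Krt8, Krt18, Krt19, Cdh1 and Ocln detected, while Epcam and Cldn7 were at or near 0 (highest condition mean 0.0195 CPM). Endothelial markers summed to at most 0.628 CPM and lung epithelial markers to at most 0.903 CPM in any library, and leukocyte markers to between 2.38 and 7.23 CPM. Among the leukocyte markers, Ptprc, which encodes CD45, had condition means of at most 0.303 CPM, while Cd68, Csf1r and Lyz2 reached 3.30, 4.61 and 4.66 CPM.

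ATF4 is the main effector of the integrated stress response. When amino acids run short or the endoplasmic reticulum is under stress, kinases phosphorylate the initiation factor eIF2, general translation falls, and the Atf4 mRNA is translated more efficiently. ATF4 pairs with C/EBP family factors on composite elements in its target genes, which take up amino acids, make serine, glycine, asparagine and proline, or limit the response, and in mammary tumor cells these genes feed nucleotide, glutathione and protein synthesis. Because translation controls ATF4, the level of its mRNA is not a measure of ATF4 activity.

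The composite element has the core TGATGNAA, which was searched on both strands of the 250 bases before each RefSeq transcription start (build GRCm38.p6). Of the 33 members, 28 had such a promoter sequence, Ero1l under its current symbol Ero1a. The core was present for 6 of these 28 (21.4%), namely Asns, Chac1, Nupr1, Pycr1, Slc7a11 and Vldlr, and for 3.91% of 27025 genes with a promoter sequence. The entries for Cth, Slc7a5, Slc7a3, Slc38a1 and Slc1a5 are missing. The stretches below show 4 of these promoters in the direction of transcription, with the core in capitals on whichever strand it lies. Slc7a11 is shown because it holds the core in both orientations, 66 and 47 bases before its start, Pycr1, Chac1 and Asns because they hold it once, 103, 193 and 23 bases before theirs. The first 3 stretches overlap no annotated exon, and that of Asns is kept short because a longer annotated transcript begins upstream of it.
Slc7a11, chr3:50443637-50443696, minus strand: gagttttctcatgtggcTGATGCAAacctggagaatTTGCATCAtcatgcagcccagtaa
Pycr1, chr11:120643818-120643877, minus strand: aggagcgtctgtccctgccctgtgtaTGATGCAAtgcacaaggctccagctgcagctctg
Chac1, chr2:119351023-119351082, plus strand: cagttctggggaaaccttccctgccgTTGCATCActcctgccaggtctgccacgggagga
Asns, chr6:7693214-7693243, minus strand: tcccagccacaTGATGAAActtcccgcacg
A match describes the letters only. Of the genes that hold it, Slc7a11 and Vldlr were called higher with hnRNP E1 silencing, Asns and Pycr1 lower and Nupr1 higher with TGFβ, Vldlr lower in clone 12 and higher in clone 16, and Chac1 was called in no comparison.

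Expression was tested with limma on log2(CPM + 1), fitted over all 20 libraries and 17106 genes that reached 1 CPM in at least 2 libraries. A gene is said to be called, to rise or to fall, where the unadjusted p was under 0.001 and the log2 fold change at least 1 in size. Where libraries of genes that passed a limit are said not to overlap, this is a description, because passing favors it. Of the 33 members 32 were tested. Slc7a3, a cationic amino acid transporter, stayed under 1 CPM in all 20 libraries, with its highest value of 0.912 CPM in L1P replicate 2. Slc38a1, Cbs and Stc2 passed only through the conditions in which they were high, with Stc2 at 1 CPM in 10 of the 20 libraries, so that a difference was built into their passing and their calls are descriptions. Whether reads were counted by strand is not given in the sources used here, so reads of Atf5 and Nup62, Ddit3 and Mars, Cebpb and Tmem189, Psph and Cct6a, Slc7a5 and AC114005.5, and Slc6a9 and Ccdc24, which overlap on opposite strands, and of Aldh18a1 and a pseudogene within it, cannot be told apart with certainty.

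**Figure D1:**
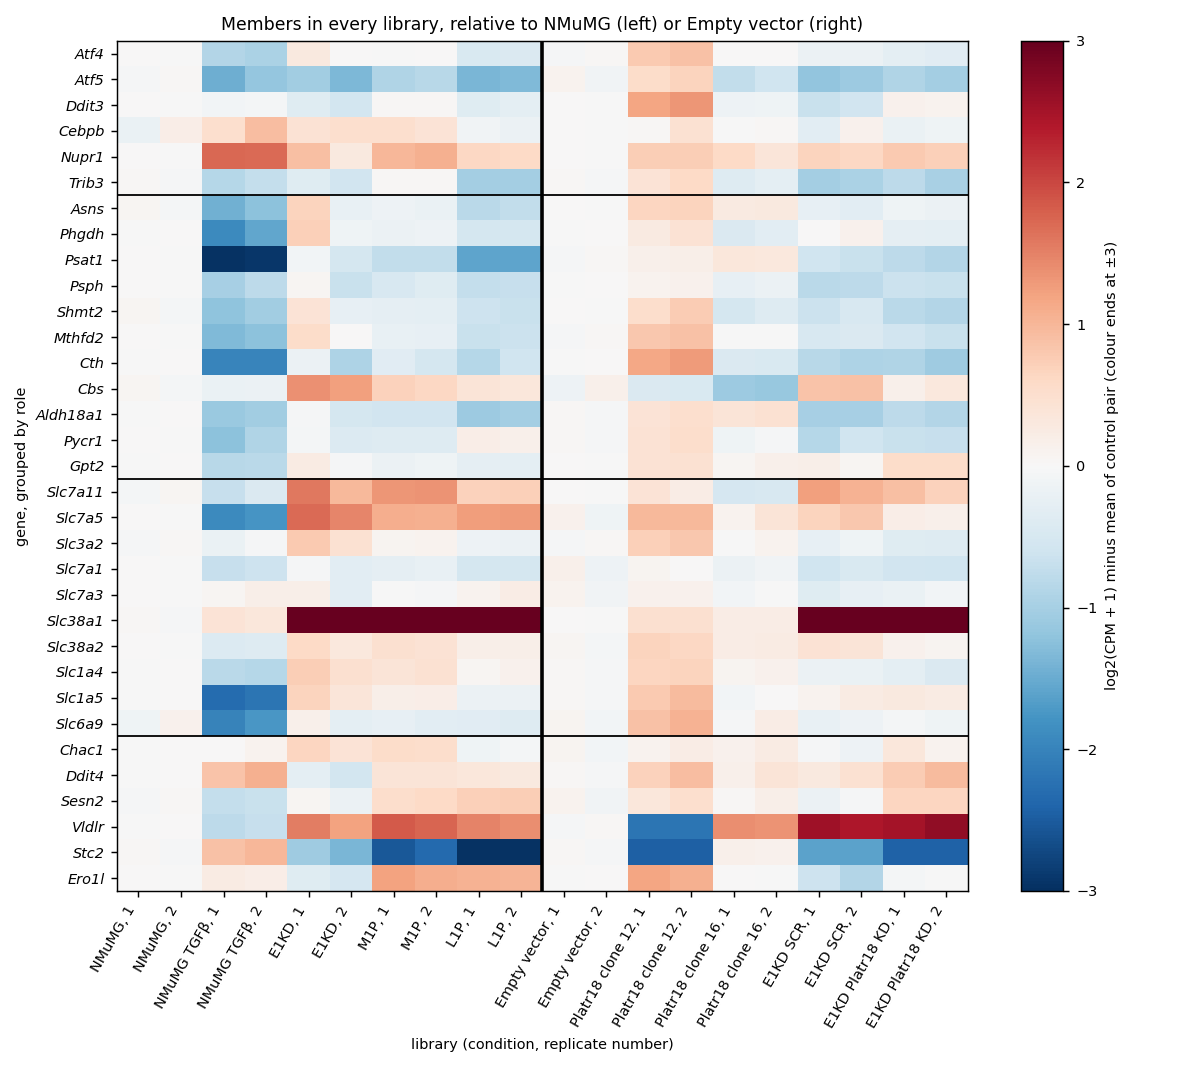
Level of the 33 members (rows, grouped by role) in each of the 20 libraries (columns), as log2(CPM + 1) minus the mean of the NMuMG pair for the first kind of library and of the Empty vector pair for the second, with red higher and blue lower. The columns after TGFβ are blue over most synthesis enzymes, Slc38a1 is dark red in all 10 libraries with the hnRNP E1 shRNA, and the clone 12 columns are red over most rows where those of clone 16 are near white.

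After TGFβ, most enzymes of the amino acid synthesis arm of the list were lower. The names were chosen with values of these libraries in view, so the counts that follow describe the list only. Against untreated NMuMG, 12 of the 32 tested members fell and 1 rose, where 7.66% of all tested genes fell and 5.85% rose. The median log2 fold change was -0.81 over the tested members and -0.08 over all tested genes. Of the 11 synthesis enzymes, 8 fell and none rose at these limits, and their median was -1.13. Of the 9 tested transporters 3 fell, of the 6 transcription factors and regulators 1 rose and 1 fell, and of the 6 effectors none was called. The largest adjusted p among all genes called in this comparison was 0.00226 (Benjamini-Hochberg).

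On the log2(CPM + 1) scale the lowest value was that of Psat1, and as a ratio of CPM that of Cth. Psat1, the aminotransferase of serine synthesis, stood at 549 and 539.9 CPM in NMuMG and at 68.8 and 70.7 CPM after TGFβ, which is 7.81-fold lower (log2 fold change -2.95, SE 0.10). Phgdh, which catalyzes the first step of serine synthesis, went from 129 and 133 CPM to 34.1 and 44.0 CPM (-1.73, SE 0.19). Shmt2, the mitochondrial enzyme that turns serine into glycine, went from 73.3 and 67.7 CPM to 29.8 and 33.5 CPM (-1.13, SE 0.15). For all 3 genes both treated libraries lay below both untreated ones. Psph, the last enzyme of serine synthesis, lay at 23.1 and 22.8 CPM and at 11.02 and 12.8 CPM, and its log2 difference of -0.89 did not reach the limit. Mthfd2, a mitochondrial folate enzyme, fell from 44.2 and 42.8 CPM to 16.8 and 17.9 CPM (-1.28, SE 0.12).

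Other branches of amino acid synthesis fell as well. Cth, the cystathionine lyase that yields cysteine, stood at 4.67 and 4.85 CPM in NMuMG and at 0.467 CPM in both treated libraries, which is 10.2-fold lower (-1.97, SE 0.17). Asns, asparagine synthetase, went from 39.8 and 37.2 CPM to 13.6 and 15.8 CPM (-1.33, SE 0.18). In the proline branch, Aldh18a1 went from 63.8 and 64.5 CPM to 28.9 and 30.4 CPM (-1.09, SE 0.11). Pycr1, which completes proline synthesis in mitochondria, went from 10.6 and 10.5 CPM to 3.91 and 5.15 CPM (-1.07, SE 0.12). With median-of-ratios scaling Shmt2, Aldh18a1 and Pycr1 no longer reached the limit, at -0.98, -0.93 and -0.94, and without TGFβ replicate 1 Pycr1 came to -0.91. A fit to the compared libraries alone lost Atf5 and Pycr1. Gpt2, an alanine aminotransferase, lay at -0.82 and Cbs, the enzyme before Cth in the same pathway, at -0.19, and neither was called.

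The 3 transporters that fell after TGFβ carry neutral amino acids or glycine. Slc1a5, a sodium-dependent glutamine carrier, stood at 91.9 and 94.9 CPM in NMuMG and at 18.0 and 19.8 CPM after treatment (4.95-fold lower, log2 fold change -2.25, SE 0.09). Slc7a5, the light chain of the large neutral amino acid exchanger LAT1, went from 65.7 and 64.1 CPM to 16.6 and 18.4 CPM (-1.83, SE 0.10). Slc6a9, a glycine transporter, went from 13.8 and 16.8 CPM to 3.06 and 3.85 CPM (-1.87, SE 0.14). No treated library reached the untreated range in any of them. Slc3a2, the heavy chain that partners with Slc7a5 and Slc7a11, stood at 105 and 109 CPM and at 93.0 and 104 CPM, with a log2 difference of -0.12.

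The regulators did not move together. Atf4 itself stood at 329.9 and 323 CPM in NMuMG and at 177 and 169 CPM with TGFβ, a log2 difference of -0.92 that missed the limit. Atf5, a related factor induced in the same response, fell from 102 and 108 CPM to 37.7 and 46.6 CPM (-1.31, SE 0.12). Nupr1, a small stress-induced chromatin protein, rose from 11.2 and 11.1 CPM to 38.9 and 38.5 CPM (1.71, SE 0.14). Ddit3, which encodes the proapoptotic factor CHOP, stood at 14.2 and 14.0 CPM against 13.1 and 13.5 CPM. Chac1, which degrades glutathione, was at 21.2 and 21.6 CPM against 21.7 and 22.9 CPM. Ddit4, an inhibitor of mTORC1, and Stc2, a secreted glycoprotein, lay higher by 0.97 and 0.94 on the log2 scale, both just short of the limit.

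Other genes around the pathway were read from lists of related genes, in a comparison where 5.85% of all tested genes rose and 7.66% fell. Apart from the metabolic enzymes these lists held few calls. All were chosen with earlier results of these data known, so their counts are descriptions and nothing is read from them. Of 18 other enzymes of serine, one-carbon, glutamine and proline metabolism tested, 7 fell after TGFβ and none rose. They included Gclc, the catalytic subunit of the rate-limiting step of glutathione synthesis (53.4 to 10.9 CPM, -2.20), Glul, glutamine synthetase (168 to 45.3 CPM, -1.86), and Shmt1, the cytosolic partner of Shmt2 (25.8 to 7.39 CPM, -1.68). Of 8 eIF2 kinases and phosphatase subunits, 2 rose: Eif2ak3, the kinase PERK (12.1 to 33.3 CPM, 1.39), and Ppp1r15a, the phosphatase subunit GADD34 (13.9 to 33.4 CPM, 1.21). Of 16 targets of XBP1 and ATF6, 2 rose (Dnajb9, 1.49, and Dnajc3, 1.13) and 1 fell (Herpud1, -1.26), and of 20 cytosolic aminoacyl-tRNA synthetases 2 fell (Wars, -1.37, and Vars, -1.14). Of 19 other ATF4 targets 3 rose and 3 fell, with Atf3 at 1.78, Mthfd1l at -1.47 and Pck2 at -1.26. Of 10 other plasma membrane amino acid transporters, Slc6a6, the taurine carrier, rose (816 to 1883 CPM) and Slc16a10, a carrier of aromatic amino acids, fell (-1.47). In the TGFβ-treated libraries 6 of 7 mesenchymal markers rose, Fn1 from 10.7 to 681 CPM, and the epithelial keratin Krt19 fell from 485 to 18.1 CPM. Col1a1, among the fibroblast markers, went from 0.195 to 34.3 CPM, and Csf1r, among the leukocyte markers, from 1.21 to 4.61 CPM (1.35). The part of these markers in the change of the members was not tested.

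In E1KD cells, 3 of the 9 tested transporters were called, Slc38a1, Slc7a5 and Slc7a11, and 1 of the 11 synthesis enzymes, Cbs. Against NMuMG, 5 members were higher in E1KD and 2 lower, where 6.44% of all tested genes were higher and 2.99% lower. Because values of this comparison were in view when the names were chosen, nothing is read from these counts. The median log2 difference was 0.13 over the tested members and 0.17 over all tested genes, and with equal library sums these medians were -0.05 and 0.04, so the direction of the list as a whole depends on the scaling. The largest adjusted p over all genes called was 0.00280. E1KD and TGFβ were compared with the same NMuMG libraries, and their values are given side by side in the plot of fold changes.

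**Figure D2:**
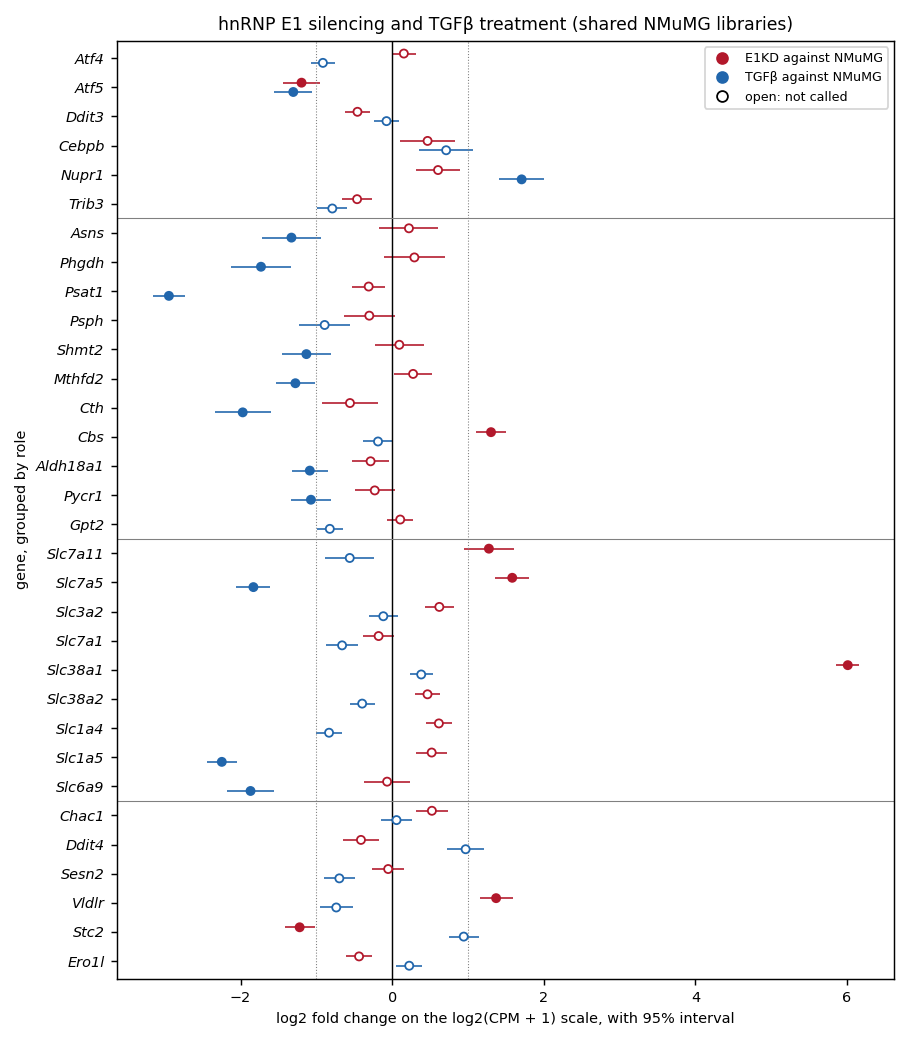
Log2 fold change on the log2(CPM + 1) scale (x axis, with 95% interval) of the 32 tested members (y axis, by role) in E1KD and in TGFβ-treated cells, each against the same 2 NMuMG libraries; filled points are called. The TGFβ points of the synthesis enzymes lie left of 0, down to -2.95 for Psat1, while in E1KD the filled points to the right include Slc38a1 at 6.01 and Slc7a5 at 1.58.

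Slc38a1 set E1KD apart from NMuMG. This gene encodes a sodium-coupled carrier of glutamine and other small neutral amino acids and lies at chr15:96571418-96642914 on the minus strand in the build of the files (GRCm38.p6). In NMuMG it stood at 0.0531 and 0.0189 CPM, which is 3 reads and 1 read, and at 69.6 and 62.1 CPM in E1KD. Over the summed reads of each pair, 6896 against 4, the ratio was 1799 (95% exact interval 702.5 to 6606, counting error only). In cells treated with TGFβ it stood at 0.384 and 0.317 CPM, or 42 reads in the pair.

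Of the neighbors of Slc38a1, Slc38a2, Scaf11 and Arid2 did not show a change of that size, and for Slc38a4 only a lower bound can be given. Slc38a2, a member of the list and a paralog with a similar substrate range that lies 44477 bases away, stood at 203 and 202 CPM in NMuMG and at 309 and 254 CPM in E1KD. Scaf11 and Arid2 on its other side had means of 182 and 67.3 CPM in NMuMG and of 248 and 76.6 CPM in E1KD. Slc38a4, another paralog farther along the chromosome and not on the list, had no read in either NMuMG library and 2.72 and 2.18 CPM in E1KD, so it was at least 89.1-fold higher there (against a floor of 3 reads over the pair). In M1P, which descends from E1KD, Slc38a4 was back at 0.0349 and 0.0532 CPM. Slc38a4 passed the filter only through E1KD, so a difference was built into its passing and its calls in every comparison are descriptions.

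Among the other transporters, Slc7a5 stood at 65.7 and 64.1 CPM in NMuMG and at 215 and 179.6 CPM in E1KD (3.04-fold higher, log2 fold change 1.58, SE 0.10). Slc7a11, the light chain of the cystine and glutamate exchanger xCT, stood at 19.5 and 21.5 CPM and at 62.9 and 41.2 CPM (1.27, SE 0.15). Both E1KD libraries lay above both NMuMG libraries for each. Without E1KD replicate 1 the value for Slc7a11 was 0.98 and the call was lost. Slc3a2, Slc1a4 and Slc1a5 lay higher by 0.62, 0.61 and 0.52 on the log2 scale and were not called.

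Of the synthesis enzymes only Cbs, which joins serine and homocysteine in cysteine synthesis, was called, with 0.301 and 0.189 CPM in NMuMG and 2.22 and 1.92 CPM in E1KD (8.47-fold higher, log2 fold change 1.30). E1KD replicate 1 lay well above replicate 2 for several enzymes of this group, for instance Asns at 61.4 and 32.8 CPM and Phgdh at 215 and 119.9 CPM, around NMuMG values of 39.8 and 37.2 CPM and of 129 and 133 CPM. Vldlr, a lipoprotein receptor induced by ATF4, rose from 7.75 and 7.84 CPM to 24.5 and 19.3 CPM (1.37, SE 0.10). Atf5 fell from 102 and 108 CPM to 50.5 and 40.6 CPM (2.31-fold lower). Stc2 fell from 6.99 and 6.51 CPM to 2.68 and 2.00 CPM (-1.22, SE 0.09). Atf4 stood at 398 and 331 CPM, against 329.9 and 323 CPM in NMuMG. A fit to the 4 compared libraries alone called 3 of the 7 members, and Atf5, Slc7a11, Vldlr and Stc2 were lost.

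Among the related lists, 4 of 20 aminoacyl-tRNA synthetases rose in E1KD and none fell, with Farsa (12.9 to 30.1 CPM, 1.13), Hars (7.59 to 18.6 CPM, 1.11) and Kars (18.1 to 42.7 CPM, 1.06) the largest. Of 19 other ATF4 targets, 3 rose and 1 fell: Bcat1, a branched-chain aminotransferase, was at 0.00895 CPM in NMuMG and 2.47 CPM in E1KD, Atf3 was at 5.19 and 15.4 CPM, and Got1, an aspartate aminotransferase, fell from 76.0 to 26.9 CPM. Gclc, which fell after TGFβ, rose here from 53.4 to 115 CPM (1.09). Creld2, a chaperone of the endoplasmic reticulum, was the only one of 16 XBP1 and ATF6 targets called (1.04), and none of the 8 eIF2 kinases and phosphatase subunits was. Of all tested genes, 6.44% were higher and 2.99% lower. The median of all tested genes was 0.17, and 0.04 with equal sums. The related lists were not run with other scalings, and Farsa, Hars, Kars, Gclc and Creld2 lay close to the limit. Fn1, Snai1 and Cdh2 led 5 of 7 mesenchymal markers that rose in E1KD. Their part in the values of the members was not tested.

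**Figure D3:**
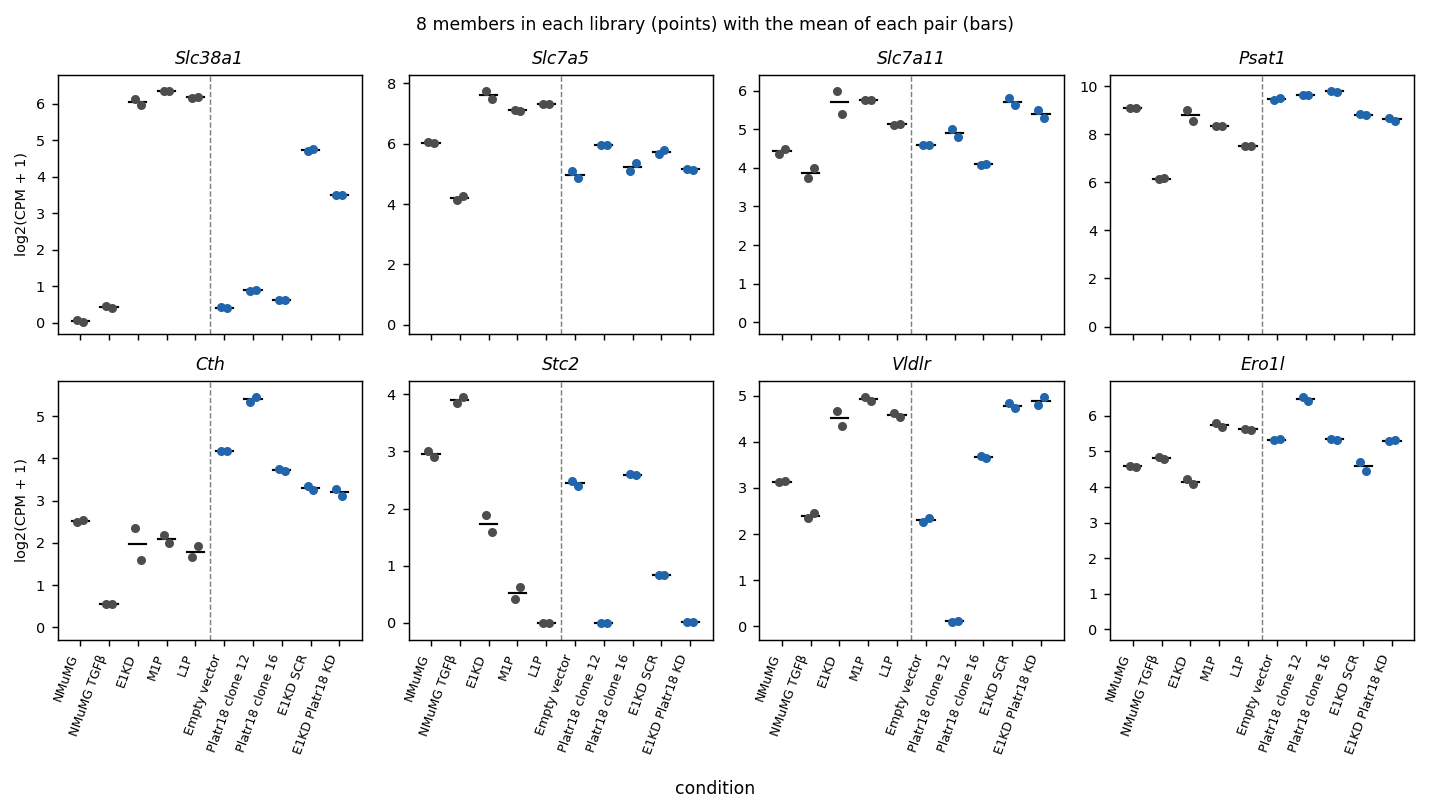
Log2(CPM + 1) (y axis) of 8 members in each library (points) with the mean of each pair (bars), over the 10 conditions (x axis), the first kind of library left of the dashed line and in grey, the second in blue. Slc38a1 is under 1 in all conditions without the hnRNP E1 shRNA and above 3 in all with it, Psat1 and Cth are lowest after TGFβ, and Stc2 is at 0 in L1P and clone 12.

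The primary tumor line M1P differed from E1KD in few members. In M1P, 1 member was higher and 1 lower, where 1.16% of all tested genes were higher and 2.43% lower, with a largest adjusted p of 0.00406 over all genes called. Ero1l, an oxidase that drives disulfide bond formation in the endoplasmic reticulum, rose from 17.6 and 15.95 CPM in E1KD to 54.8 and 50.2 CPM in M1P (3.13-fold, log2 fold change 1.59, SE 0.08). Stc2 fell again, from 2.68 and 2.00 CPM to 0.332 and 0.549 CPM (-1.21, SE 0.09). The groups did not overlap for either gene. In a fit to the compared libraries alone Ero1l kept its call and Stc2 lost it. Among the markers in the same comparison, Lyz2 was higher in M1P (0.221 to 3.05 CPM, 1.73), and Csf1r (-1.04), the epithelial genes Cdh1 (-1.29) and Ocln (-1.06) and the mesenchymal gene Fn1 (-1.81) were lower. Their part in the values of the members was not tested.

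Slc38a1 stayed high in both derived lines. M1P had 81.1 and 81.2 CPM, and L1P 71.3 and 72.4 CPM. Slc7a5 stood at 139 and 136 CPM in M1P, between its NMuMG and E1KD levels. Slc7a11 stood at 53.0 and 53.5 CPM there, within the range of the E1KD libraries. The median log2 difference between M1P and E1KD was -0.13 over the members and -0.17 over all genes, and with equal sums it was 0.04 over the members, so no direction is given for the list. Bcat1 and Slc38a4, which had risen in E1KD, were down again in M1P, at 0.0353 and 0.0441 CPM (-1.74 and -1.72), and Aldh1l2, a mitochondrial folate enzyme, rose from 0.421 to 3.09 CPM (1.52). Slc38a4 passed the filter only through E1KD, and Bcat1 was near 0 in both NMuMG and M1P, so the calls of this pair are descriptions.

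From the primary tumor line to the lung metastasis line, most members were lower by a small amount. As the names were chosen with values of these libraries in view, the counts here are descriptions. At the limits used above only 1 member was called lower in L1P than in M1P and none higher, where 0.468% of all tested genes were lower and 0.742% higher, with a largest adjusted p of 0.00633 over all genes called. That member was Trib3, a pseudokinase that restrains ATF4, which went from 37.8 and 37.9 CPM in the primary tumor line to 17.7 and 17.8 CPM (2.14-fold lower, log2 fold change -1.05, SE 0.09). By adjusted p under 0.05 alone, with no limit on size, 17 of the 32 tested members were lower and 1 was higher, against 7.3% and 11.2% of all tested genes. The log2 difference was below 0 for 29 of 32 members, and this number was the same with equal sums, with median-of-ratios factors and without any 1 of the 4 libraries. The median was -0.35 over the members and 0.02 over all tested genes. Leaving out 1 library weakened the adjusted calls, among the members and among all tested genes, since a condition then holds 1 library. The median of the members was -0.34 without L1P replicate 1 and -0.37 without L1P replicate 2. It was -0.36 without M1P replicate 1 and -0.35 without M1P replicate 2.

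The 17 lower members were 5 regulators (Atf4, Atf5, Ddit3, Cebpb and Trib3), 5 enzymes (Psat1, Asns, Mthfd2, Cbs and Aldh18a1), 4 transporters (Slc7a11, Slc38a2, Slc1a4 and Slc1a5) and 3 effectors (Chac1, Vldlr and Stc2). Psat1 stood at 328 and 326 CPM in M1P and at 182 and 180.0 CPM in L1P (1.81-fold lower, log2 difference -0.85, SE 0.10). Atf4 stood at 325 and 332 CPM against 238 and 244 CPM (-0.45, SE 0.07). Slc7a11 stood at 53.0 and 53.5 CPM against 33.9 and 34.2 CPM (-0.63, SE 0.15). Chac1 stood at 31.6 and 31.4 CPM against 19.5 and 20.4 CPM (-0.63, SE 0.10). None of these 4 genes had an L1P library within the M1P range. Pycr1 was the member that went the other way, from 7.82 CPM in both M1P libraries to 12.2 and 11.9 CPM (0.57, SE 0.12). Slc7a5 and Sesn2, a leucine sensor of the mTORC1 pathway, lay above 0 as well, at 0.19 and 0.16, with adjusted p of 0.256 and 0.336 by limma. Stc2 had no read in either L1P library and was at least 15.0-fold lower than in M1P (floor of 3 reads over the pair), although its difference of -0.52 on the log2(CPM + 1) scale missed the limit. Outside the list, Pck2, a mitochondrial enzyme and ATF4 target, rose from 42.5 to 91.1 CPM (1.08) and Fn1 from 43.9 to 135 CPM.

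**Figure D4:**
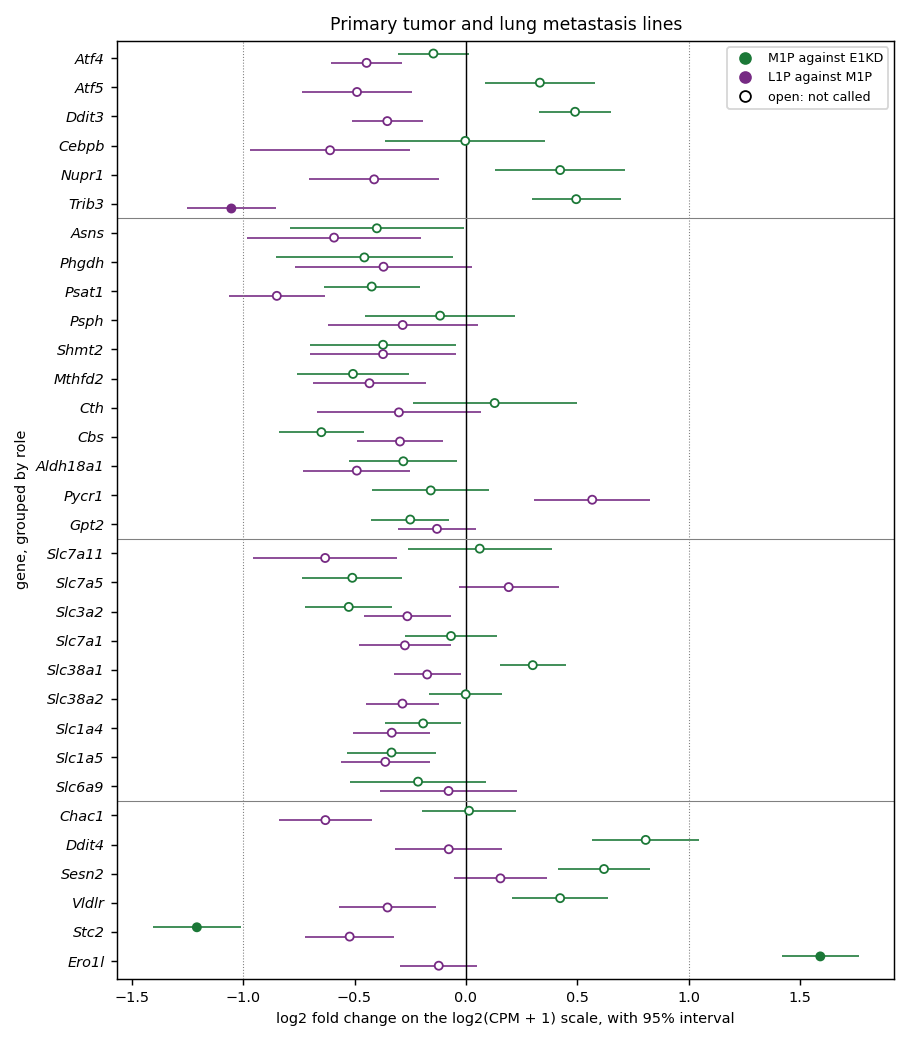
Log2 fold change on the log2(CPM + 1) scale (x axis, with 95% interval) of the 32 tested members (y axis, by role) in M1P against E1KD and in L1P against M1P; filled points are called. The L1P points lie left of 0 for 29 members and right of 0 for Pycr1, Slc7a5 and Sesn2, and the only filled ones are Trib3 in L1P, and Stc2 and Ero1l in M1P.

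In the second kind of library, hnRNP E1 silencing could be read again, as E1KD SCR against the Empty vector, where the cells differ also in the vectors they carry. Of 7 mesenchymal markers 1 rose here, Fn1 (5.47 to 20.7 CPM, 1.75), where 5 rose in E1KD. Platr18 stood at 2.92 and 3.10 CPM in E1KD SCR and at 3.69 and 3.06 CPM with the Empty vector. E1KD had 17.9 and 14.6 CPM of it and NMuMG 1.24 and 1.45 CPM. The part of these differences in the values of the members was not tested. In that comparison 3 members were higher and 2 lower, where 2.91% of all tested genes were higher and 3.07% lower, with a largest adjusted p of 0.00330 over all genes called. Slc38a1 stood at 0.343 and 0.319 CPM with the Empty vector and at 25.4 and 26.1 CPM in E1KD SCR (77.8-fold higher, log2 fold change 4.33, SE 0.07). Slc7a11 rose from 23.05 and 23.01 CPM to 55.2 and 48.4 CPM (1.13, SE 0.15). Vldlr rose from 3.78 and 4.08 CPM to 27.8 and 25.5 CPM (6.77-fold, 2.48, SE 0.10). In each of these genes both E1KD SCR libraries lay above both Empty vector libraries. Atf5 fell from 33.2 and 28.2 CPM to 12.8 and 13.8 CPM (-1.14, SE 0.12), and Stc2 from 4.59 and 4.29 CPM to 0.785 and 0.778 CPM (-1.61, SE 0.09). Without Empty vector replicate 2, 8 members were called in place of 5.

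The effect of silencing differed between the kinds of library for 1 member in each direction, where 2.57% of all tested genes had a higher and 0.947% a lower value in the first kind, with a largest adjusted p of 0.00852 over all genes called. For Slc38a1 the log2 effect was 1.68 larger in E1KD against NMuMG than in E1KD SCR against the Empty vector (SE 0.10). For Vldlr it was smaller, with a difference of -1.12 (SE 0.14), which came to -0.95 and lost its call without E1KD replicate 2. Kind of library, line and vector cannot be told apart in these differences. That of Slc38a1 comes mostly from its levels in E1KD and E1KD SCR, and its size depends on the value added before the log was taken. Slc7a5 and Cbs, which were called in E1KD, lay higher by 0.74 and 0.86 in E1KD SCR and were not called, and neither difference between the kinds passed the limits. Got1 fell and Gclc and Farsa rose in E1KD SCR too (-1.80, 1.01 and 1.06). Bcat1, Atf3, Slc38a4, Hars, Kars and Creld2, which were called in E1KD, were not called there, and the effect was larger in the first kind of library for Bcat1 (by 1.68), Atf3 (by 1.25) and Slc38a4 (by 1.57). In E1KD SCR 3 other transporters fell, namely Slc6a6 (-1.07), Slc36a4 (-1.06) and Slc7a7 (-1.06).

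Slc38a1 was lower in the E1KD cells that carried the shRNA against Platr18. Both of their libraries have the same hairpin label, so Platr18 and other effects of that shRNA or line cannot be told apart. Against E1KD SCR, no member was higher and 1 was lower at the size limit, where 0.485% of all tested genes were higher and 0.994% lower, with a largest adjusted p of 0.00334 over all genes called. Slc38a1 stood at 25.4 and 26.1 CPM in E1KD SCR and at 10.4 CPM in both E1KD Platr18 KD libraries, 2.47-fold lower (log2 fold change -1.23, SE 0.07). That level was still above the 0.343 and 0.319 CPM of the Empty vector libraries. By adjusted p under 0.05 alone, 6 members were higher and 5 lower, against 8.45% and 11% of all tested genes. With median-of-ratios scaling 7 were higher and 10 lower, against 16% and 15.5% of all tested genes.

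The 5 lower members without that scaling were Slc38a1, Slc38a2, Slc7a5, Cbs and Stc2. Slc7a5 stood at 49.4 and 53.9 CPM in E1KD SCR and at 35.0 and 34.0 CPM in E1KD Platr18 KD (-0.57, SE 0.10), and Cbs at 3.21 and 3.27 CPM and at 1.60 and 1.93 CPM (-0.62, SE 0.09). Stc2 had 107 reads in the E1KD SCR pair and 4 in the E1KD Platr18 KD pair, a ratio of 57.5 to 1 with an exact interval of 21.8 to 215 for counting error, and -0.81 on the log2(CPM + 1) scale. The 6 higher members were Ddit3, Sesn2, Ero1l, Ddit4, Gpt2 and Chac1, 5 of them stress factors or effectors rather than enzymes of synthesis. Ddit3 stood at 11.9 and 12.7 CPM and at 21.4 and 21.2 CPM (0.74, SE 0.07), Sesn2 at 21.5 and 24.02 CPM and at 38.7 and 39.0 CPM (0.75, SE 0.10), and Ero1l at 25.2 and 21.1 CPM and at 37.9 and 38.8 CPM (0.71, SE 0.08). Atf4 stood at 288 and 286 CPM and at 265 and 255 CPM, a difference of -0.14 with an adjusted p of 0.215 by limma. None of the related lists of ATF4 targets, eIF2 kinases, unfolded protein response targets, transporters, synthetases and synthesis enzymes held a called gene. Fn1, a mesenchymal marker, fell from 20.7 to 6.197 CPM (-1.59).

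In none of the tested members did the Platr18 overexpression clones share a change at the size limit. Taken as the mean of clones 12 and 16 against the Empty vector, no member was higher and 1 was lower, where 0.427% of all tested genes were higher and 1.03% lower, with a largest adjusted p of 0.00202 over all genes called. The lower member was Stc2, and its mean hid opposite values: no read in either clone 12 library, 5.06 and 4.97 CPM in clone 16, and 4.59 and 4.29 CPM with the Empty vector. Stc2 was thus at least 196-fold lower in clone 12 (floor of 3 reads over the pair) and differed by 0.15 in clone 16. By adjusted p under 0.05 alone, 18 members were higher and 3 lower for the mean of the clones, against 13.2% and 15.6% of all tested genes.

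Those higher values came mostly from clone 12, although Aldh18a1, Nupr1, Asns and Psat1 lay above the Empty vector in both clones. Aldh18a1 had means of 161.1 CPM in clone 12, 158.6 CPM in clone 16 and 117.6 CPM with the Empty vector. For Psat1 these means were 790.0, 882.3 and 700.2 CPM. In clone 12 against the Empty vector, 3 members were higher and 2 lower at the size limit (1.13% and 2.52% of all tested genes), and 29 of the 32 members lay above 0 with a median of 0.56. In clone 16, 1 was higher and 1 lower (0.772% and 1.01% of all tested genes). There 19 members lay above 0 and 13 below, and the median was 0.04. Both clones were set against the same Empty vector libraries. Compared with each other, clone 16 had 5 members lower than clone 12 and 2 higher, where 1.68% of all tested genes were lower and 2.71% higher, with a largest adjusted p of 0.00214 over all genes called. By adjusted p alone 22 members were lower in clone 16 and 2 higher, against 18.9% and 23.7% of all tested genes. The median difference of clone 16 from clone 12 was -0.55 over the members and 0.01 over all tested genes.

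The 5 members lower in clone 16 than in clone 12 were Atf5, Ddit3, Shmt2, Cth and Ero1l, and the 2 higher were Vldlr and Stc2. Ddit3 stood at 19.5 and 19.4 CPM with the Empty vector, at 45.2 and 49.97 CPM in clone 12 and at 17.5 and 17.7 CPM in clone 16 (clone 16 minus clone 12: -1.38, SE 0.07). Cth stood at 17.1 CPM in both Empty vector libraries, at 39.6 and 42.8 CPM in clone 12 and at 12.4 and 12.1 CPM in clone 16 (-1.67, SE 0.17). Ero1l stood at 38.8 and 39.8 CPM, at 91.3 and 83.8 CPM and at 39.9 and 39.2 CPM (-1.12, SE 0.08). In these 3 genes clone 12 lay above the other 4 libraries, and clone 16 was close to or below the Empty vector. Atf4 stood at 318 and 333 CPM with the Empty vector, at 559 and 597 CPM in clone 12 and at 330.3 and 330.1 CPM in clone 16 (-0.80, SE 0.07), short of the size limit.

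Atf5 differed by -1.28 (SE 0.12) between the clones, with 45.2 and 49.0 CPM in clone 12 and 17.8 and 19.8 CPM in clone 16 around Empty vector values of 33.2 and 28.2 CPM. Shmt2 differed by -1.10 (SE 0.15), with 162 and 190.2 CPM in clone 12, 77.1 and 85.9 CPM in clone 16 and 113 and 111 CPM with the Empty vector, and its call was lost without clone 12 replicate 2 (-0.98). Vldlr went in opposite directions in the clones. It stood at 3.78 and 4.08 CPM with the Empty vector, at 0.0743 and 0.0767 CPM in clone 12 (52.0-fold lower) and at 11.9 and 11.6 CPM in clone 16 (2.99-fold higher), a difference of 3.57 (SE 0.10). Cbs stood at 1.11 and 1.59 CPM, at 0.728 and 0.690 CPM in clone 12 and at 0.0970 and 0.0559 CPM in clone 16, 17.7-fold lower than with the Empty vector. Slc38a1 lay at 0.847 and 0.859 CPM in clone 12 and at 0.554 and 0.545 CPM in clone 16, against 25.4 CPM or more in E1KD SCR.

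Platr18 itself was higher in clone 12 than in clone 16, so its level and the identity of the clone cannot be told apart with 1 clone at each level. Among the related lists, Glul was higher in clone 16 (128 CPM in clone 12 and 297 CPM in clone 16, 1.21), while Slc16a10 (-2.13), Vegfa, the angiogenic factor (-1.71), and Ppp1r15a (-1.201) were lower. For the mean of the clones against the Empty vector no gene of the metabolic and stress lists was called, while the mesenchymal marker Fn1 rose from 5.47 to 12.6 CPM (1.08). The part of Fn1 in the values of the members was not tested.

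**Figure D5:**
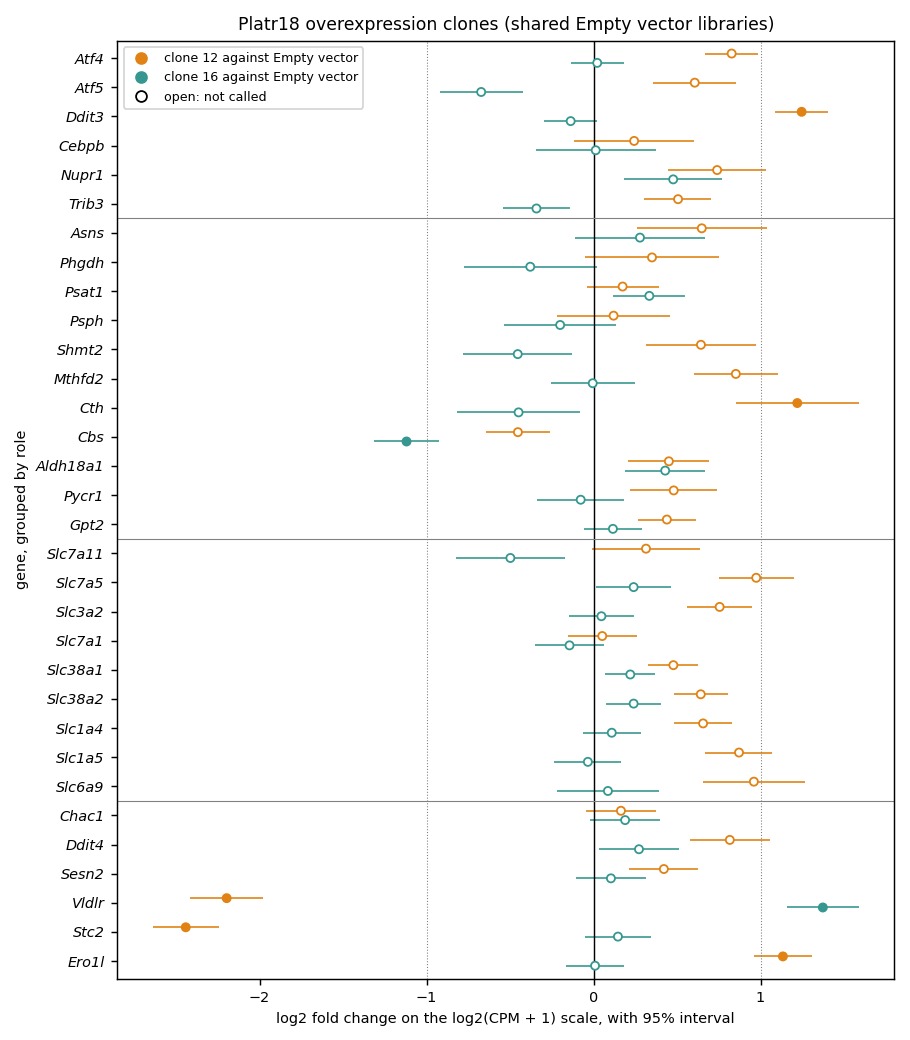
Log2 fold change on the log2(CPM + 1) scale (x axis, with 95% interval) of the 32 tested members (y axis, by role) in Platr18 clone 12 and clone 16, each against the same 2 Empty vector libraries; filled points are called. The clone 12 points lie right of 0 for 29 members, Vldlr sits at -2.20 in clone 12 and 1.37 in clone 16, and Stc2 at -2.44 and 0.15.

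Of the 32 tested members, 21 were called in at least 1 of the 11 comparisons and 11 in none: Atf4, Cebpb, Psph, Gpt2, Slc3a2, Slc7a1, Slc38a2, Slc1a4, Chac1, Ddit4 and Sesn2. In the first kind of library, the TGFβ-treated cells held the lowest value of 8 of these 11, for instance Slc1a4, an exchanger of serine and alanine, at 17.9 and 17.3 CPM against 31.9 and 32.6 CPM in NMuMG (-0.83, SE 0.08). The matching shares of all tested genes were not computed, and the comparisons share libraries, so nothing is read from the counts of 21 and 8. Slc7a1, the main carrier of arginine and lysine, stood at 100.4 and 106 CPM after TGFβ against 165 and 163 CPM (-0.66, SE 0.10). Cebpb, a partner of ATF4 on the composite element, had its highest values of the first kind after TGFβ, at 30.3 and 40.6 CPM against 18.3 and 24.2 CPM (0.71, SE 0.17), a wider spread between replicates than in the other genes of this paragraph. Ddit4 stood at 111 and 128 CPM after TGFβ against 60.5 and 60.7 CPM in NMuMG, and in M1P at 80.1 and 79.9 CPM against 49.5 and 41.4 CPM in E1KD (0.81, SE 0.11). Sesn2 was highest in L1P, at 54.6 and 55.7 CPM, and lowest after TGFβ, at 19.6 and 20.4 CPM.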

How the data were processed

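RNA was extracted with Trizol for 20 libraries, 2 for each of 10 conditions, and sequenced on an Illumina instrument. Per the study's methods and the submitters' processing notes, the authors aligned reads with Bowtie2 2.2.5 to GRCm38.p6, assigned them to the mouse M18 annotation with the expectation-maximization method of Partek, and deposited 1 table of CPM values, each with 0.0001 added. Within 0.05 of a read, 88.8% to 90.2% of low values were whole multiples of 1 read in the first kind of library and 97.05% to 97.6% in the second, which was too few to rebuild counts for a count test.

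The groups came from the series labels. The log2(CPM + 1) values, a scale that understates changes of low genes, entered a limma 3.58.1 model (R 4.3.3, lmFit and trended eBayes) of 10 condition means, leaving 10 residual degrees of freedom. Of 54986 genes, the 17106 that reached 1 CPM in 2 or more libraries were tested. Calls needed an unadjusted p under 0.001 and a log2 fold change of 1 or more in size, and adjusted p-values are Benjamini-Hochberg values over all tested genes. The code was tested on simulated data. Intervals of read ratios are exact (Clopper-Pearson, scipy 1.17.1), and the floor was 3 reads over a pair. Depth limits the lowest members only.

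All 33 members are accounted for, called members are given with every library's value, and of each other list at most 3 called genes per comparison are named. The members and lists were chosen with earlier results of these data known. The alternatives were a pseudocount of 0.1, no filter on low values or a mean of at least 5 CPM, equal sums or median-of-ratios scaling, fits on the compared groups alone, a replicate block, adjusted p alone and leaving out each library. Whether same-numbered libraries deviate together was checked by the correlation of their differences over genes, which ran from -0.125 to 0.287.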

Additional observations from a re-analysis of the deposited data

Results flagged for a closer look

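The effect of hnRNP E1 silencing differed between the kinds of library for a pair of members, by the interaction term of the limma fit. Of all tested genes, 2.57% had a higher and 0.947% a lower value in the first kind. The effect on Slc38a1 was larger by 1.68 in E1KD against NMuMG than in E1KD SCR against the Empty vector (log2, adjusted p 2.61e-08), and on Vldlr the difference was -1.12 (adjusted p 6.11e-05). For Slc38a1 the p-value adds no support, because its E1KD level was in view when the names were chosen. A difference was also built into its passing of the filter. The 4 reads of Slc38a1 in the NMuMG pair count for little on the log2(CPM + 1) scale. Its difference comes mostly from the means of 65.85 CPM in E1KD and 25.74 CPM in E1KD SCR, which are of different kinds of library. The size of that difference also depends on the value added before the log was taken.

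Clone 16 and clone 12 differed in 7 members, by the direct contrast of the clones, where the level of Platr18 and the identity of the clone cannot be told apart. Of all tested genes, 2.71% were higher and 1.68% lower in clone 16. The differences on the log2 scale were -1.28 for Atf5, -1.38 for Ddit3, -1.10 for Shmt2, -1.67 for Cth, 3.57 for Vldlr, 2.59 for Stc2 and -1.12 for Ero1l. For each of the 7, both libraries of one clone lay outside the range of the other clone, which adds no support because the limits of a call favor it.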

How the results depend on the processing

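Every value of a called member kept its direction under the alternatives run. With a pseudocount of 0.1 the number of members called came to 2 in L1P against M1P, 3 in the Platr18 clones, 2 in E1KD Platr18 KD and 8 in E1KD SCR against the Empty vector. With a mean of at least 5 CPM it came to 1 in M1P against E1KD and 0 in the clones, since Stc2 is too low to enter. In fits on the compared groups alone it came to 3 in E1KD and 1 in M1P, with fewer libraries behind the spread, and 7 of 39 calls were lost: Atf5, Slc7a11, Vldlr and Stc2 in E1KD, Stc2 in M1P, and Atf5 and Pycr1 after TGFβ. By adjusted p alone it came to 21 in E1KD, 28 after TGFβ, 17 in M1P, 18 in L1P, 21 in the clones, 11 in E1KD Platr18 KD, 21 in E1KD SCR, 24 between the clones and 13 for the difference between the kinds of library. Of all tested genes, 39.6% were higher and 17.1% lower in E1KD, 21.8% and 33.6% after TGFβ, and 12.1% and 37% in M1P. In L1P the shares were 11.2% and 7.3%, in the clones 13.2% and 15.6%, and in E1KD Platr18 KD 8.45% and 11%. They were 23% and 19.6% in E1KD SCR, 23.7% and 18.9% between the clones, and 15.4% and 5.86% for the difference between the kinds. With 1 library left out, the count in E1KD SCR against the Empty vector ran from 5 to 8, reached without Empty vector replicate 2, and 4 of 166 single values lost their call. Median-of-ratios scaling ended 3 calls of 39, and equal sums none. The median of all tested genes in E1KD against NMuMG was 0.17, against 0.04 with equal sums and 0.02 with median-of-ratios factors.

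Same-numbered libraries correlated at -0.125 for clone 16 and the Empty vector and at 0.287 for clones 12 and 16, so the numbers were not taken as pairs. With the replicate block the counts were 7 in E1KD, 13 after TGFβ and 5 in E1KD SCR, and none of the 39 calls was lost. With the numbers of clone 16 crossed, an alternative chosen after seeing the data, 1 member was called in the clones. Read numbers limit Slc38a1 in NMuMG, Cbs, Stc2 and Vldlr in clone 12, and 2 libraries a condition limit the rest.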
